A study of Mus musculus with 21 samples.

Results

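The slit diaphragm genes Nphs1, Kirrel, Cd2ap, Magi2, Tjp1, Trpc6 and Fat1 were examined in laser-microdissected mouse glomeruli. These 7 of 35598 genes were chosen by name, all 7 were matched by identifier, and all 7 were among the 13898 genes with enough reads to test. The glomeruli were dissected from cryosections of kidney, 1 library for each of 21 female mice at 3 months of age, and were profiled by 3' tag sequencing (QuantSeq FWD), which reads the end of polyadenylated transcripts. All mice carried floxed Epac1 alleles. The cKO mice also carried a Cre recombinase active in podocytes, where it deletes Epac1, and their littermates without Cre are called flox. Passive glomerulonephritis was induced with decomplemented nephrotoxic serum injected intravenously on 2 consecutive days, and glomeruli were taken at an early stage (day 4) or an established stage (day 11). Control mice received PBS. There were 3 cKO PBS, 3 flox PBS, 4 cKO day 4, 3 flox day 4, 4 cKO day 11 and 4 flox day 11 libraries. The Cre acts in podocytes, whereas dissected glomeruli also hold endothelial, mesangial and parietal cells. No group analysed here carried the Cre without floxed alleles.

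The slit diaphragm is the cell junction that bridges neighbouring podocyte foot processes and forms the outer layer of the glomerular filter. Its extracellular part is built from adhesion proteins. Nphs1 encodes nephrin, an immunoglobulin-family protein that spans the slit, Kirrel encodes Neph1, its binding partner, and Fat1 encodes a very large cadherin. Inside the foot process, Cd2ap encodes an adaptor that ties nephrin to actin and to phosphoinositide signalling, Magi2 encodes a multi-PDZ scaffold, and Tjp1 encodes ZO-1, a tight junction scaffold that binds Neph1. Trpc6 encodes a calcium-permeable channel that is found at the slit. Loss of nephrin, CD2AP or MAGI2 causes nephrotic syndrome in people, and gain-of-function TRPC6 variants cause focal segmental glomerulosclerosis.

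Libraries held between 4550550 and 24295712 reads with a median of 19470098, and between 7871 and 13006 genes had reads. The library with the fewest genes was cKO day 4 replicate 3, and that with the fewest reads was cKO day 11 replicate 3. The 5 podocyte markers Podxl, Synpo, Wt1, Ptpro and Tcf21 had reads in each group, and their summed level ran from 1754 to 4938 CPM (reads scaled to a common library total). Rapgef3, which encodes Epac1, averaged 121 ± 50.1 CPM in cKO PBS and 270.2 ± 60.5 CPM in flox PBS glomeruli (SD, n = 3 each). On day 11 it averaged 176.9 ± 28.6 CPM in cKO and 204.5 ± 100.7 CPM in flox glomeruli (SD, n = 4 each). Since a 3' tag can lie outside the deleted exons and other glomerular cells keep the gene, Rapgef3 is no check of the deletion here.

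Promoter windows are shown for Nphs1, the core of the junction, and for Cd2ap and Magi2, the members with the smallest p-values after serum. Each window runs from 250 bases before to 50 bases after the RefSeq transcript start (GRCm38.p6) and reads 5′ to 3′ on the gene's strand. Capitals mark E-boxes (CANNTG, where N is any base) and GC boxes (GGGCGG), searched on both strands.
Nphs1 promoter, chr7:30459808-30460107, plus strand: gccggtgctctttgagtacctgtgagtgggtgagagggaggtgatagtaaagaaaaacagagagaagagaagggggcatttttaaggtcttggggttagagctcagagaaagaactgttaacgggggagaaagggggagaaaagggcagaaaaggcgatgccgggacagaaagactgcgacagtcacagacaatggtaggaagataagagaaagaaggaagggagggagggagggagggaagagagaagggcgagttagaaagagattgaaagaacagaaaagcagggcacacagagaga
Cd2ap promoter, chr17:42876375-42876674, minus strand: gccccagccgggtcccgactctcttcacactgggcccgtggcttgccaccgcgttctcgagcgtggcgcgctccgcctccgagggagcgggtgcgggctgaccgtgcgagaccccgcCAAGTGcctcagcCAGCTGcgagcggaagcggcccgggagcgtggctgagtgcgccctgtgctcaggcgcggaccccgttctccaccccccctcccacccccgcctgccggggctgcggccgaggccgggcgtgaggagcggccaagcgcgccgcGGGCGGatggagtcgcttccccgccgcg
Magi2 promoter, chr5:19226796-19227095, plus strand: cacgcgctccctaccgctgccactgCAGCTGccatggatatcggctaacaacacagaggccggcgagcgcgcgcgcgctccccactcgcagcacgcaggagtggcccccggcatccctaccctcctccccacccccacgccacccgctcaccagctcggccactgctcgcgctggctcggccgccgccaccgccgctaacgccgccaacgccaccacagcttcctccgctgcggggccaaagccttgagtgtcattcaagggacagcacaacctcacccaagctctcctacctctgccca
The Nphs1 window held 0 E-boxes and 0 GC boxes, and its GC content was 49.7%, against a median of 52.7% over 32851 windows of the same length. The Cd2ap window held 2 E-boxes and 1 GC box at 77.0% GC, and the Magi2 window 1 E-box and 0 GC boxes at 69.3% GC. E-boxes were present in 72.3% of all windows and GC boxes in 35.7%. None of these matches overlapped, and a TATA box (TATAAA) was found in 0 of the 3 windows, against 13.6% of all windows. The other members' windows ranged in GC content between 42.7% (Fat1) and 69.3% (Kirrel), with Magi2's second start at 43.0%. The RefSeq starts lie well inside the longer GENCODE gene models for Nphs1, Tjp1 and Fat1, so the window shown for Nphs1 is not at the outermost GENCODE start.

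Among the 4 members with the lowest spread, the widest gaps after serum were those of the intracellular adaptor and scaffold Cd2ap and Magi2. Cd2ap averaged 234 ± 103 CPM on day 4 (SD, n = 7), against 432.5 ± 96.9 CPM with PBS (SD, n = 6). Magi2 averaged 189 ± 85.0 CPM on day 11 (SD, n = 8), against 368.5 ± 93.5 CPM with PBS (SD, n = 6). Nphs1 and Tjp1 lay closer to their PBS levels, and Kirrel and Trpc6 were missing from several libraries. For Fat1 all cKO PBS values lay above all flox PBS values, as for 7.27% of tested genes. None of these differences passed the test across all genes. In each member's order of group means, every group overlapped the next.

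Differences were tested with edgeR's quasi-likelihood test on all 13898 genes, with p-values adjusted over all of them, and a gene was called at an adjusted p under 0.05. Fold changes are on the log2 scale with a standard error (SE). None of the 7 members was called in any of the 13 comparisons. For day 4 against PBS averaged over genotypes, 0 of 7 members and 0.0216% of all genes were called. For day 11 against PBS averaged over genotypes, 0 of 7 members and 0.122% of all genes were called, and for cKO against flox averaged over stages 0 of 7 members and 0.0072%. For cKO day 11 against cKO PBS, 0 of 7 members and 0.0504% of all genes were called. For each of the other comparisons 0 of 7 members and 0.0% of all genes were called. These were cKO day 4 and flox day 4 and flox day 11 against their own PBS group, cKO against flox within PBS, day 4 or day 11, day 11 against day 4, and the genotype by day 4 and genotype by day 11 interactions. At an unadjusted p under 0.05, 1 of 7 members passed for day 4 against PBS averaged over genotypes (Cd2ap), beside 9.28% of all genes. For day 11 the count was 1 of 7 (Magi2), beside 9.12%. Between genotypes it was 0 of 7, beside 6.62%. Within cKO mice the count was 1 of 7 on day 4 (Cd2ap), beside 8.16% of all genes, and 1 of 7 on day 11 (Magi2), beside 6.02%. A count of 1 in 7 is little above these shares and is not read as a result about the members. DESeq2 called 1 of 7 members for day 4 averaged over genotypes (Cd2ap), beside 1256 of all 13898 genes. This count too is not read as a result about the members. In the other comparisons DESeq2 called 0 of 7, beside 495 to 1164 of 13898 genes. Voom called 0 of 7 in each comparison, beside 3 to 103 of 13898 genes.

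Most point estimates after serum were negative. Averaged over genotypes, 6 of 7 members had a negative log2 fold change on day 4, with a median of -0.64, while 49.5% of all tested genes were negative and their median was 0.01. On day 11 the count was again 6 of 7, with a median of -0.21 against 0.07 for all genes and 47.1% of all genes negative. The exception at both stages was Fat1. The day 11 median of -0.21 is the estimate of Trpc6 (SE 2.20), and both counts include Kirrel (SE 1.65 on day 4 and 1.575 on day 11). These SEs are too wide to place a direction. Without Kirrel and Trpc6 the middle estimate was that of Nphs1, -0.36 on day 4 and -0.19 on day 11. Between genotypes 4 members had a positive and 3 a negative estimate, with a median of 0.05 against 0.01 for all genes. Both stage comparisons share the PBS libraries. In bulk glomeruli, fewer podocytes and less RNA per podocyte cannot be told apart.

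**Figure D1:**
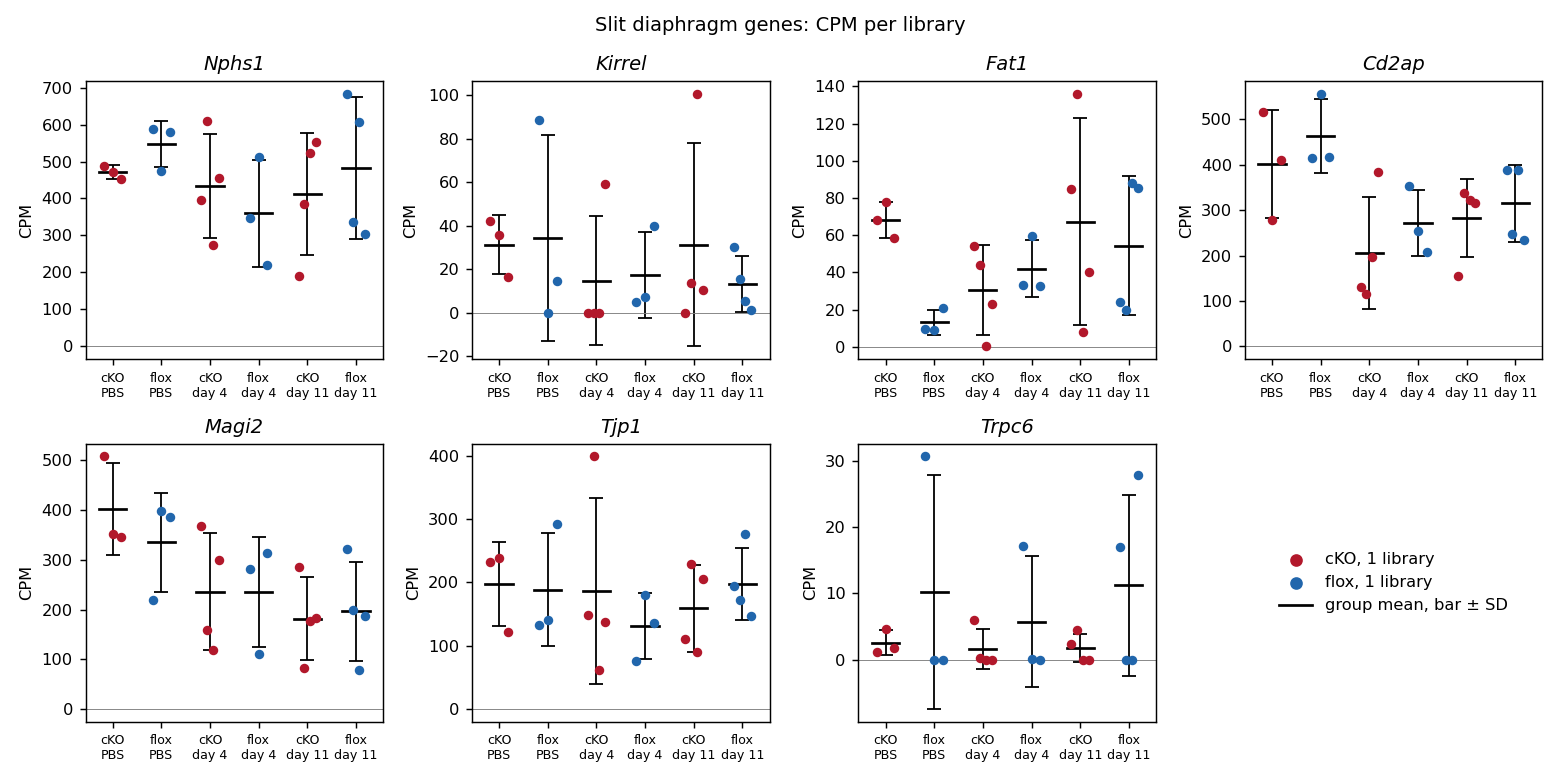
CPM of the 7 slit diaphragm genes in each library, with cKO and flox mice side by side at PBS, day 4 and day 11. Each point is 1 mouse and black bars are the group mean ± SD. Kirrel and Trpc6 include libraries at 0, and Cd2ap and Magi2 are highest on average with PBS. Fat1 in cKO PBS lies above all flox PBS libraries, as for 7.27% of tested genes.

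Nphs1 (ENSMUSG00000006649.17, chr7:30458315-30487223, plus strand) was among the most evenly measured genes of these glomeruli. At baseline, Nphs1 levels were 489, 472 and 452 CPM in cKO PBS and 587, 474 and 579 CPM in flox PBS glomeruli. They were 397, 611, 274 and 454 CPM in cKO and 347, 511 and 221 CPM in flox glomeruli on day 4. Established nephritis (day 11) gave 192, 385, 523 and 553 CPM in cKO and 683, 335, 606 and 304 CPM in flox glomeruli. The 3 cKO PBS libraries lay close together, and the serum groups ranged both above and below them. Over genotypes Nphs1 averaged 402 ± 135.5 CPM on day 4 (SD, n = 7), against 509 ± 58.7 CPM with PBS (SD, n = 6), a log2 fold change of -0.36 ± 0.25 (SE; 95% interval -0.88 to 0.16; adjusted p = 0.800). On day 11 it averaged 448 ± 169.1 CPM (SD, n = 8), with a log2 fold change against PBS of -0.19 ± 0.25 (SE; 95% interval -0.69 to 0.32; adjusted p = 1.0). The genotypes averaged 436.5 ± 121 CPM in cKO (SD, n = 11) and 465 ± 154 CPM in flox (SD, n = 10), a log2 fold change of -0.06 ± 0.20 (SE; 95% interval -0.47 to 0.35; adjusted p = 0.9999). No genotype difference was detectable within that interval. The gene Kirrel2, a Neph family member, lies 624 bases away on the opposite strand and was singled out for that position. It had reads in 1 of 4 cKO day 4 libraries (7.87 CPM) and 1 of 4 cKO day 11 libraries (16.4 CPM), and 0 in each library of the other groups.

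Kirrel (ENSMUSG00000041734.15, chr3:87078593-87174747, minus strand), the partner of nephrin, was detected unevenly. PBS-injected mice had Kirrel levels of 42.2, 35.6 and 16.4 CPM in cKO PBS and 88.7, 0 and 14.8 CPM in flox PBS glomeruli. Early nephritis (day 4) gave 0, 0, 0 and 59.3 CPM in cKO and 5.12, 7.09 and 40.0 CPM in flox glomeruli. By day 11 there were 0, 13.7, 100.8 and 10.7 CPM in cKO and 30.4, 15.5, 5.498 and 1.43 CPM in flox glomeruli. It had 0 reads in 5 of 21 libraries, 3 of them cKO day 4 mice, whereas the fourth cKO day 4 library held 1334 reads. In libraries with 0 reads of Kirrel or Trpc6, a count of 0 allows up to 0.127 to 0.672 CPM (3 counts per library, counting error only). The PBS, day 4 and day 11 medians were 26.0, 5.12 and 12.2 CPM, and the groups overlapped throughout. The log2 fold change on day 4 was -1.03 ± 1.65 (SE; 95% interval -4.39 to 2.32; adjusted p = 0.9999), too wide to place a direction, and it was 0.07 without flox PBS replicate 1.

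Fat1 (ENSMUSG00000070047.14, chr8:44935447-45052257, plus strand) showed another pattern than the other members. In PBS-injected mice Fat1 stood at 68.0, 78.0 and 58.4 CPM in cKO PBS and 9.79, 8.95 and 21.1 CPM in flox PBS glomeruli. At the early stage it stood at 54.5, 44.2, 0.307 and 23.0 CPM in cKO and 33.1, 59.6 and 33.0 CPM in flox glomeruli. At the established stage it stood at 84.8, 136, 8.06 and 40.0 CPM in cKO and 24.3, 19.7, 87.96 and 85.4 CPM in flox glomeruli. All 3 cKO PBS values lay above all 3 flox PBS values, as for 7.27% of tested genes. The log2 fold change between these groups was 2.36 ± 1.25 (SE; 95% interval -0.20 to 4.91; adjusted p = 0.727), so the difference did not pass the test. After serum the ranges of the genotypes overlapped. Within day 4, edgeR placed cKO at -0.46 relative to flox on the log2 scale (95% interval -2.72 to 1.80). The changes from PBS in each genotype start from the same PBS libraries as this gap. Those changes, and the difference between them, are therefore not separate from the PBS gap. In flox mice all 3 day 4 values lay above PBS, as for 6.81% of tested genes, with a log2 fold change of 1.66 ± 1.22 (SE; 95% interval -0.84 to 4.15; adjusted p = 0.875). In cKO mice all 4 day 4 values lay below PBS, as for 4.76% of tested genes, with a log2 fold change of -1.16 ± 1.11 (SE; 95% interval -3.42 to 1.10; adjusted p = 1.0). The lowest value came from 4 reads in cKO day 4 replicate 3, the library with the fewest detected genes. The difference between genotypes in the day 4 change was -2.81 ± 1.65 (SE; 95% interval -6.17 to 0.55; adjusted p = 0.769), beside a median of -0.28 over all genes, and -2.40 without the libraries with the fewest genes and the fewest reads. On day 11 flox values spanned both the PBS range and higher levels, with a log2 fold change of 2.03 ± 1.19 (SE; 95% interval -0.40 to 4.46; adjusted p = 0.644).

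Markers of neighbouring cell types are given beside Fat1, and none of them passed the test in these comparisons. The 6 parietal epithelial markers (Pax8, Cldn1, Cdh6, Krt8, Krt18 and Cd44) summed to 84.6 to 110.5 CPM in cKO PBS and 16.1 to 91.2 CPM in flox PBS libraries, and 5 of the 6 had a positive estimate between these groups. On day 4 they summed to 21.1 to 109.7 CPM in cKO and 67.9 to 212 CPM in flox glomeruli. The 7 endothelial markers, which include Flt1, summed to 4231 to 6223 CPM in cKO PBS and 4646 to 6024 CPM in flox PBS glomeruli. On day 4 they summed to 3254 to 5455 CPM in cKO and 3293 to 3857 CPM in flox glomeruli. The 6 mesangial markers (Itga8, Pdgfrb, Gata3, Des, Ren1 and Serpine2) summed to 2225 to 2489 CPM in cKO PBS and 2744 to 3735 CPM in flox PBS glomeruli. Of these 6, 4 had a negative estimate between these groups. Their day 4 sums were 1249 to 2418 CPM in cKO and 2371 to 2711 CPM in flox glomeruli. No marker of these lists was at 0 throughout a group, and the part of the markers in the Fat1 result was not tested. The antisense gene Gm2366 overlaps Fat1 and held 716 reads over all libraries. Strand handling is not stated in the sources at hand, so reads of the pair cannot be told apart.

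Cd2ap (ENSMUSG00000061665.7, chr17:42792951-42876665, minus strand) had the smallest day 4 p-value of the members. Cd2ap levels before nephritis were 516, 279 and 411 CPM in cKO PBS and 415, 557 and 417 CPM in flox PBS glomeruli. The day 4 libraries read 129.9, 114, 196 and 384 CPM in cKO and 353, 254 and 209 CPM in flox glomeruli. The day 11 libraries read 155.04, 339, 322 and 316 CPM in cKO and 389, 249, 388.5 and 235 CPM in flox glomeruli. The log2 fold change on day 4, averaged over genotypes, was -0.87 ± 0.28 (SE; 95% interval -1.43 to -0.30; adjusted p = 0.376), with an unadjusted p of 0.00365 and an estimate of -0.85 without the 2 libraries with the fewest genes or reads. DESeq2 gave the same estimate with an adjusted p of 0.0461. In flox mice all day 4 values lay below all PBS values, as for 3.87% of tested genes, with a log2 fold change of -0.77 ± 0.40 (SE; 95% interval -1.59 to 0.06; adjusted p = 0.595). In cKO mice 3 of 4 day 4 libraries lay below the lowest PBS value and the fourth, at 384 CPM, lay within the PBS range, with a log2 fold change of -0.96 ± 0.37 (SE; 95% interval -1.73 to -0.20; adjusted p = 0.598). The difference between genotypes in the day 4 change was -0.20 ± 0.55 (SE; 95% interval -1.32 to 0.93; adjusted p = 0.9999). On day 11 the average was 299 ± 80.9 CPM (SD, n = 8) and the log2 fold change against PBS -0.53 ± 0.26 (SE; 95% interval -1.07 to 0.01; adjusted p = 0.553). In flox mice all 4 day 11 values again lay below all PBS values, as for 2.53% of tested genes. In cKO mice replicate 1 stood apart at 155.04 CPM. With the mean level of 14 podocyte genes other than the members as a covariate, the day 4 estimate was -0.87. These 14 include the slit-linked genes Ptpro and Plce1. With the mean level of the 9 proximal tubule markers as a covariate, the day 4 estimate was -0.79, with an unadjusted edgeR p of 0.0122. Averaged over genotypes, 8 of these 9 markers had a positive estimate on day 4, with a median of 0.53. The part of tissue content in the Cd2ap result was not tested.

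Magi2 (ENSMUSG00000040003.18, chr5:19227036-20704792, plus strand) was lowest on day 11. Without serum, Magi2 was at 508, 353 and 345 CPM in cKO PBS and 219, 398 and 387 CPM in flox PBS glomeruli. With serum, on day 4, it was at 367, 159, 118 and 299.6 CPM in cKO and 282, 109.8 and 314 CPM in flox glomeruli. With serum, on day 11, it was at 286, 82.0, 177.1 and 183 CPM in cKO and 321, 198, 78.8 and 188 CPM in flox glomeruli. The log2 fold change on day 11, averaged over genotypes, was -0.96 ± 0.32 (SE; 95% interval -1.61 to -0.30; adjusted p = 0.339), with an unadjusted p of 0.00539. All 4 cKO day 11 values lay below all 3 cKO PBS values, as for 4.03% of tested genes, with a log2 fold change of -1.15 ± 0.45 (SE; 95% interval -2.07 to -0.22; adjusted p = 0.805). In flox mice the ranges overlapped, and flox PBS replicate 1 stood at 219 CPM. On day 4 the average was 236 ± 104 CPM (SD, n = 7), a log2 fold change of -0.64 ± 0.33 (SE; 95% interval -1.32 to 0.04; adjusted p = 0.578). No gene of the cell type marker lists passed the test on day 11. The 5 podocyte markers summed to 1754 to 3638 CPM on day 11 and 2777 to 4498 CPM with PBS, and all 5 had a negative estimate on day 11, with a median of -0.70. Negative estimates were also found for 6 of 7 endothelial markers (median -0.51), 7 of 9 proximal tubule markers (median -0.37) and 5 of 6 distal nephron markers (median -1.28), while all 6 parietal markers were positive (median 1.43). The ribosomal RNA gene CT010467.1 took 15.4% to 39.5% of reads on day 11 and 17.3% to 25.4% with PBS. The lowest Magi2 values came from flox day 11 replicate 3 and cKO day 11 replicate 2, where that share was 30.1% and 28.5%, and the library with the highest share, cKO day 11 replicate 4, held 183 CPM. The part of that share in the Magi2 result was not tested. With the podocyte covariate used for Cd2ap, the day 11 estimate of Magi2 was -0.53 and that of cKO day 11 against cKO PBS -0.43. The median estimate of all genes on day 11 was 0.31 with that covariate, against 0.07 without it.

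Tjp1 (ENSMUSG00000030516.14, chr7:65296165-65527781, minus strand), which is also expressed by endothelial and tubular cells, gave overlapping values in each group. Baseline values of Tjp1 were 232, 239 and 121 CPM in cKO PBS and 133, 141 and 292 CPM in flox PBS glomeruli. Day 4 values were 149, 399, 62.1 and 137 CPM in cKO and 76.0, 180.3 and 136 CPM in flox glomeruli. Day 11 values were 109.9, 229, 90.7 and 206 CPM in cKO and 195, 172, 277 and 147 CPM in flox glomeruli. The highest and lowest values of all 21 libraries both came from cKO day 4 mice. The log2 fold change was -0.30 ± 0.37 (SE; 95% interval -1.05 to 0.44; adjusted p = 0.9999) on day 4 and -0.12 ± 0.35 (SE; 95% interval -0.84 to 0.60; adjusted p = 1.0) on day 11. Between genotypes it was 0.09 ± 0.29 (SE; 95% interval -0.50 to 0.68; adjusted p = 0.9999).

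Trpc6 (ENSMUSG00000031997.9, chr9:8544142-8680741, plus strand) was detected in 12 of 21 libraries, with 1 to 621 reads. Trpc6 values with PBS were 1.20, 4.64 and 1.79 CPM in cKO PBS and 30.6, 0 and 0 CPM in flox PBS glomeruli. Those of day 4 were 6.01, 0.259, 0 and 0 CPM in cKO and 17.1, 0.0493 and 0 CPM in flox glomeruli. Those of day 11 were 2.41, 4.49, 0 and 0 CPM in cKO and 16.96, 0, 0 and 27.8 CPM in flox glomeruli. Reads were found in 7 of 11 cKO libraries, all at or below 6.01 CPM. They were found in 5 of 10 flox libraries, of which 1 held 1 read and the other 4 lay between 16.96 and 30.6 CPM. Means were 1.89 ± 2.21 CPM in cKO (SD, n = 11) and 9.26 ± 12.6 CPM in flox (SD, n = 10), yet the medians were 1.20 CPM in cKO and 0.0246 CPM in flox. The log2 fold change was -2.18 ± 1.87 (SE; 95% interval -5.998 to 1.63; adjusted p = 0.9999), and its sign turned when flox PBS replicate 1 or flox day 4 replicate 1 was left out.

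**Figure D2:**
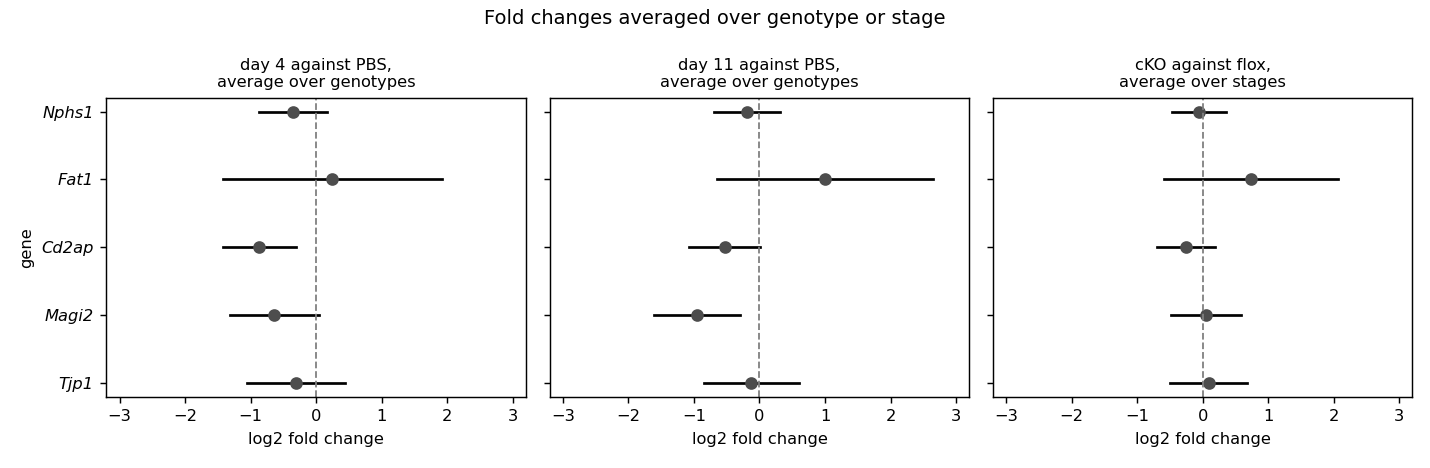
Log2 fold changes of the 5 members with reads in all 21 libraries, for day 4 against PBS, day 11 against PBS and cKO against flox. Points are edgeR estimates and lines their 95% intervals. The intervals of Cd2ap on day 4 and Magi2 on day 11 lie below 0 before adjustment over all genes, and no member passed after it.

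The members differed in how evenly they were measured. The biological coefficient of variation, the spread between mice of a group relative to the level, was 0.455 for Nphs1, 0.474 for Cd2ap, 0.524 for Magi2 and 0.557 for Tjp1. These were low values, at the 2.1, 2.9, 5.1 and 6.6 percentiles of tested genes, whose median was 1.68. It was 0.984 for Fat1, 1.84 for Kirrel and 2.80 for Trpc6. Among the members the coefficient rose as the average log2 CPM fell, from 8.81 for Nphs1 to 2.46 for Trpc6. The percentiles are therefore not separate from expression level, and no comparison with genes of like level was made. The SE of a log2 fold change ran from 0.20 to 0.51 for Nphs1 across comparisons and from 1.87 to 4.65 for Trpc6.

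**Figure D3:**
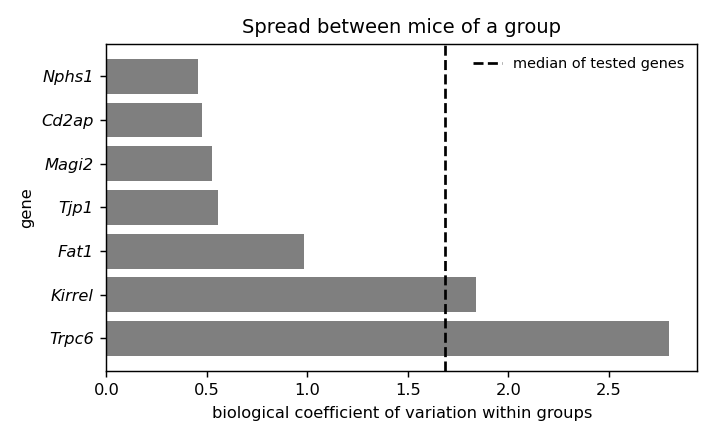
Biological coefficient of variation within groups for the 7 members, with the dashed line at the median of tested genes (1.68). Nphs1, Cd2ap, Magi2 and Tjp1 lie between 0.455 and 0.557, and Kirrel and Trpc6 above the line.

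Across libraries the members did not move as 1 block. Of the 21 pairs of members, Pearson's r of log2 CPM over the 21 libraries was highest for Kirrel with Cd2ap (0.58), Tjp1 with Fat1 (0.56) and Nphs1 with Tjp1 (0.55). It was 0.45 for Nphs1 with Cd2ap and -0.04 for Nphs1 with Magi2. Tjp1 and Fat1 each had their lowest value in cKO day 4 replicate 3. These are descriptions over libraries that share depth and tissue content. In cKO day 4 replicate 3, all 7 members lay below their own mean, and in cKO PBS replicate 1 all 7 lay above it. No other library had all 7 on one side.

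**Figure D4:**
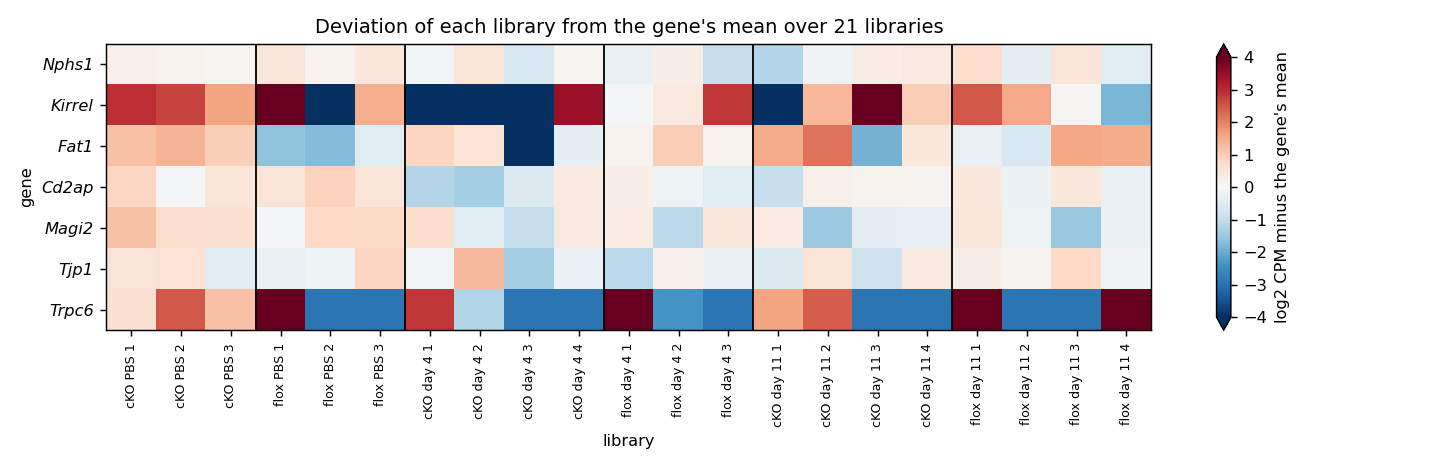
Log2 CPM of each member minus its mean over the 21 libraries, with libraries ordered by group and colours limited to 4 units either way. The row of Nphs1 is pale throughout, the rows of Kirrel and Trpc6 alternate between extremes, and all 7 members are below their means in cKO day 4 replicate 3.

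The genes most like each member were named by the highest Pearson r of log2 CPM over 21 libraries among 2043 well-expressed genes, as a description. Nphs1 was closest to Fam110a (0.83), Oaz2 (0.75) and Fuca1 (0.71). Cd2ap was closest to Deptor (0.79), Magi2 to Ptbp3 (0.69) and Tjp1 to Snrnp70 (0.75). Fat1 was closest to Cyyr1 (0.83), Flt1 (0.82) and Mbnl1 (0.82), and Flt1 is a VEGF receptor and an endothelial marker. Relative to its mean log2 CPM, Fat1 stood at -6.17 in cKO day 4 replicate 3 and at -1.89 in cKO day 11 replicate 3, its next lowest library. The first of these libraries can therefore weigh heavily on the Fat1 correlations, which were not recomputed without it. For Kirrel and Trpc6 the highest values were 0.67 (Ktn1) and 0.66 (Atp6v1a). Libraries with 0 reads, 5 of 21 for Kirrel and 9 of 21 for Trpc6, can weigh heavily on these values. How high the largest of 2043 correlations would reach among unrelated genes was not tested for any member.

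Other genes linked to the slit were examined in 4 lists, and none was called in any comparison. Of 23 tested junction proteins and scaffolds, 12 had a negative estimate on day 4 and 10 on day 11, with medians of -0.07 and 0.17. Of 20 signalling adaptors and kinases, 12 were negative on day 4 and 10 on day 11. Among them Ptpro, a podocyte receptor phosphatase, averaged 175 ± 69.3 CPM on day 11 (SD, n = 8), against 331 ± 116 CPM with PBS (SD, n = 6), with a log2 fold change of -0.91 (SE 0.28) and an adjusted p of 0.330. Of 18 endocytic and actin capping partners of Cd2ap, 7 were negative at each stage, with medians of 0.31 on day 4 and 0.15 on day 11. Of 14 genes of the calcium entry and calcineurin axis, 6 were negative at each stage. Nfatc2, a transcription factor activated by calcineurin, averaged 4.90 ± 9.55 CPM on day 11 (SD, n = 8), against 0.043 ± 0.11 CPM with PBS (SD, n = 6), with an adjusted p of 0.424. The endocytic gene Dnm1 averaged 6.87 ± 11.1 CPM on day 11 (SD, n = 8) and had 0 reads in the 6 PBS libraries. Between genotypes the smallest p-values of the lists belonged to Igsf5, Dab2, Evl and Rcan2. Igsf5, a junctional adhesion molecule, also had the smallest p of its list on day 11. It averaged 17.3 ± 25.0 CPM on day 11 (SD, n = 8) and 11.2 ± 15.4 CPM with PBS (SD, n = 6), while its fitted log2 fold change had the opposite sign, -5.52 (SE 2.37), with an adjusted p of 0.446. Dab2, an endocytic adaptor, averaged 282 ± 143 CPM in cKO and 221 ± 94.3 CPM in flox, with an adjusted p of 0.9999 for a log2 fold change of 0.39 (SE 0.26). Rcan2, a calcineurin regulator, averaged 114 ± 54.2 CPM in cKO and 183.5 ± 114 CPM in flox, with an adjusted p of 0.857 for a log2 fold change of -0.54 (SE 0.30). Evl, an actin elongation factor, averaged 21.7 ± 27.7 CPM in cKO (SD, n = 11) and 2.19 ± 3.98 CPM in flox (SD, n = 10), with an adjusted p of 0.513 for a log2 fold change of 5.54 ± 1.86 (SE).

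Of 14 podocyte genes other than the members, 10 had a negative estimate on day 11, with a median of -0.55, and 7 on day 4, with a median of -0.15. These 14 are not a separate set. Ptpro and Plce1 were also in the slit-linked lists, and the podocyte markers Podxl, Synpo, Wt1, Ptpro and Tcf21 were among the 14. Sema3g, a podocyte semaphorin, averaged 427 ± 203 CPM on day 11 (SD, n = 8), against 773 ± 171 CPM with PBS (SD, n = 6), with a log2 fold change of -0.92 (SE 0.22) and an adjusted p of 0.109. None of the 14 was called. On day 4 the slit members' median of -0.64 stood below that of these podocyte genes, and on day 11 their median of -0.21 stood above it. Both member medians include Kirrel and Trpc6, and that of day 11 is the estimate of Trpc6 itself (SE 2.20). Neither difference was tested.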

How the data were processed

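RNA was measured by 3' tag sequencing in 21 libraries, 1 per mouse. The authors deposited estimated counts for each gene without normalization, per the file headers. The submitters' processing notes name FastQC, fastp, DRAGEN and Picard, and mm10 as the build. The sources used here give no annotation release, strand setting or duplicate handling. Of values above 0, 95.2% were whole within 0.005. Identifiers were matched to GENCODE M21 without version numbers (35513 of 35598, 99.8%), and 0 pairs of libraries were identical.

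After rounding, the estimated counts went into edgeR 4.0.16 (R 4.3.3). Genes passed filterByExpr at a minimum count of 10, TMM factors ran from 0.751 to 1.12, and differences were tested by robust quasi-likelihood. The model held 6 group means for 21 libraries, leaving 15 residual degrees of freedom. Each p-value was adjusted by Benjamini-Hochberg over 13898 genes. The SE was taken as the absolute log2 fold change over the root of the F statistic. CPM values used TMM-adjusted library sizes, and log2 CPM a prior count of 2. The procedure was also run on simulated counts, and no result given here rests on that run. Named genes were the 7 members, in each list the gene with the smallest p on day 11 and between genotypes, and for each member the 3 most correlated genes whose mean log2 CPM was 6 or more. Alternatives were DESeq2 1.42.0, voom with quality weights (limma 3.58.1), median-ratio size factors, no count filter, the compared groups alone, a replicate block, proximal tubule and podocyte covariates, removal of cKO day 4 replicate 3 with cKO day 11 replicate 3, and each library left out. The members and lists were chosen with earlier results of these data known. Of the planned lists, 2 genes are not reported here and were left out of the list counts, the marker sums and the podocyte covariate. Labels give 1 mouse per library but no litters or batches. Figures used matplotlib 3.10.9.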

Additional observations from a re-analysis of the deposited data

Results flagged for a closer look

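Each of the 7 members was examined in the 3 groups of 4 libraries, and in 4 of these 21 sets 1 library lay far from the rest of its group by Dixon's ratio. The cut-off gives about 1 in 20 by chance only for normally distributed values. Kirrel and Trpc6, with libraries at 0 reads, are not of that kind, so the count is not compared with chance. Kirrel stood at 59.3 CPM in cKO day 4 replicate 4, while the other libraries of the group had 0 reads. Kirrel also stood at 100.8 CPM in cKO day 11 replicate 3, the library with the fewest reads. Cd2ap was low, at 155.04 CPM, in cKO day 11 replicate 1, and Trpc6 was high, at 6.01 CPM, in cKO day 4 replicate 1.

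On day 4 all cKO libraries lay below cKO PBS for Fat1, as for 4.76% of tested genes, and all flox libraries lay above flox PBS, as for 6.81%. Neither change passed the test, with edgeR adjusted p-values of 1.0 in cKO and 0.875 in flox. The difference between genotypes, -2.81 on the log2 scale, had an unadjusted p of 0.0977 and an adjusted p of 0.769 in edgeR. Both changes start from the PBS libraries, where cKO already stood above flox by 2.36 on the log2 scale. The opposite directions are therefore not separate from that PBS gap, which did not pass the test either. Within day 4 the genotypes overlapped, with cKO at -0.46 relative to flox (95% interval -2.72 to 1.80).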

How the results depend on the processing

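For the 27 fold changes of members given, 568 of 590 alternative values kept their direction and their side of the threshold, and 253 of 254 recounts of called members stayed at 0. The exception was DESeq2 on day 4, with 1 member called (Cd2ap, -0.87). Deviations from the group means had a median correlation of -0.014 over 48 pairs of libraries with the same replicate number. That cannot show whether replicate numbers mark litters or batches, which the labels do not give. The replicate block called no member, gave -0.042 for Magi2 between genotypes and turned Trpc6 to 1.80, and voom gave 1.13 for Trpc6. Leaving out 1 library gave ranges that crossed 0 for Tjp1 on day 11 (-0.25 to 0.11), Kirrel on day 4 (-6.55 to 0.072), the genotype difference in the day 4 change of Cd2ap (-0.685 to 0.049) and, between genotypes, Nphs1 (-0.136 to 0.048), Magi2 (-0.072 to 0.166), Tjp1 (-0.14 to 0.24) and Trpc6 (-3.54 to 1.32). The cause was not tested. Over the 13 comparisons, the number of all genes called ran from 0 to 17 in edgeR, 495 to 1256 in DESeq2, 3 to 103 in voom and 0 to 39 without the count filter. Kirrel and Trpc6 are limited by their spread between libraries, with 0 reads in some and up to 1684 and 621 in others.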
